A study of Arabidopsis thaliana with 33 samples.

Results

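The genes described here are 85 Arabidopsis thaliana genes of the large families that oxidise or conjugate small molecules: cytochrome P450s, UDP-glycosyltransferases (UGT) and glutathione transferases of the tau (GSTU) and phi (GSTF) classes. They are the probes whose annotated symbol begins with CYP, UGT, GSTU or GSTF and a digit, apart from UGT78D2, and they make up 85 of the 13746 genes that could be named on the array. Each had 1 probe, and no measured value was used to choose them. They comprise 23 P450s, 49 UGTs, 10 GSTUs and 2 GSTFs. The remaining member, CYP71 (AT3G44600), is a cyclophilin, a protein-folding enzyme that shares the letters of its symbol with the P450s but not their chemistry.

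P450s are haem enzymes of the endoplasmic reticulum that insert oxygen into hormones, fatty acids, terpenoids and phenolics. UGTs attach a sugar to hormones, flavonoids, lignin precursors and foreign compounds, which changes their solubility, activity and place of storage. Glutathione transferases join glutathione to reactive compounds or bind them as carriers. In the anther, specific P450s build the precursors of the pollen wall polymer sporopollenin, and the tapetum, the nurse tissue around the developing pollen, delivers glycosylated flavonols and hydroxycinnamic acid amides to the pollen coat.

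Floral tissue of 3 mutants was compared with wild type on 33 arrays with 2 dyes, each carrying mutant RNA and wild-type RNA. The ap3 mutant, which lacks petals and stamens as organs, was sampled as inflorescence meristem and buds up to early stage 10 (4 arrays), against wild-type tissue of the same kind. The nzz mutant (spl/nzz), which fails to start sporogenesis, and the ms1 mutant, which lacks viable pollen, were sampled as meristem and buds up to stage 13 (4 arrays each), also against wild type. Flowers of ms1 and wild type were in addition pooled by stage into 7 samples, each measured on 3 arrays from 3 sets collected on different days. The labels give tissue of 50 plants per sample for the mutants, name no allele or accession, and describe the sets as biologically independent. Whether each of the 4 arrays of a mutant had its own tissue is not stated, so p-values measure the spread between arrays.

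Values are log2 ratios of mutant over wild type, so a positive value means higher in the mutant. The direction is likely but not settled: the deposited table does not say which RNA is the numerator. It was set so that genes of mature pollen are lower in ms1 and nzz. The logarithm's base is also inferred, as 10, from a limit of 2 on either side of 0 in the deposited values. That limit is a log2 ratio of 6.64, or 100-fold, and a value there is a bound. If the base were 2, the limit would be 4-fold and all log2 sizes would be too large by a factor of 3.32, with no call changed.

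The values were read as already turned to 1 direction rather than as dye ratios, and the calls rest on that reading. Over the 16600 gene probes with a value inside the limit on every array, replicate arrays with opposite dyes correlated at r of 0.50 to 0.57 in nzz and 0.10 to 0.27 in ms1, but at -0.11 to 0.06 in ap3. In the series samples r ranged from -0.61 to 0.56. Read as dye ratios, none of the members called below kept its call in the same comparison, and other members were called, mostly ones with arrays at the limit.

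A gene was called when limma, fitted to all gene probes with a dye term, gave a Benjamini-Hochberg adjusted p under 0.05. All 85 members were tested in every comparison. Of their 2779 measured values, 191 (6.87%) lay at the limit, and in 188 of these the sign followed the dye, upward with the mutant in Cy5 and downward with the mutant in Cy3. These values fell on 40 members, comprising 11 P450s, 22 UGTs, 5 GSTUs and both GSTFs. The other 45 members were never at the limit. Within-group SDs had a median of 0.38 in the members never at the limit and 1.08 in those that reached it. One array stood apart, ms1 series sample 2 of set 2, with 25 members at the upper limit, where the other 32 arrays had 1 to 13.

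Across the 10 comparisons of mutant with wild type, 11 members were called at least once and 74 in none. The share of all probes called at least once is not given here, so this count is not read as a result about the members. In nzz, 8 of 85 members were called (9.41%), against 15.2% of all 26046 gene probes tested. Of these, 5 were lower, where 6.91% of all probes were called lower, and 3 were higher, where 8.32% were. In ms1 inflorescences 2 members were called, both higher, which is 2.35% of members against 2.18% of all probes called in either direction, 0.434% called higher and 1.74% called lower. In ap3 1 member was called, also higher (1.18% of members), against 0.177% of all probes in either direction, 0.0538% called higher and 0.123% called lower. Since the direction is not settled, the share in either direction is the one to read these counts against. The direct difference between ms1 and nzz called no member, against 0.685% of all probes. At an unadjusted p under 0.05, limma gave 24 members in nzz, 15 in ms1, 10 in ap3 and 10 for the difference. The share of all probes at that threshold is not given here, so these counts are not read as a result about the members. Median log2 ratios over the members were 0.10 in nzz, 0.05 in ms1 and 0.02 in ap3, beside 0.10, 0.02 and 0.02 over all probes. The median absolute log2 ratio over the members was 0.33 in nzz, 0.26 in ms1 and 0.17 in ap3, beside 0.23, 0.15 and 0.12 over all probes.

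**Figure D1:**
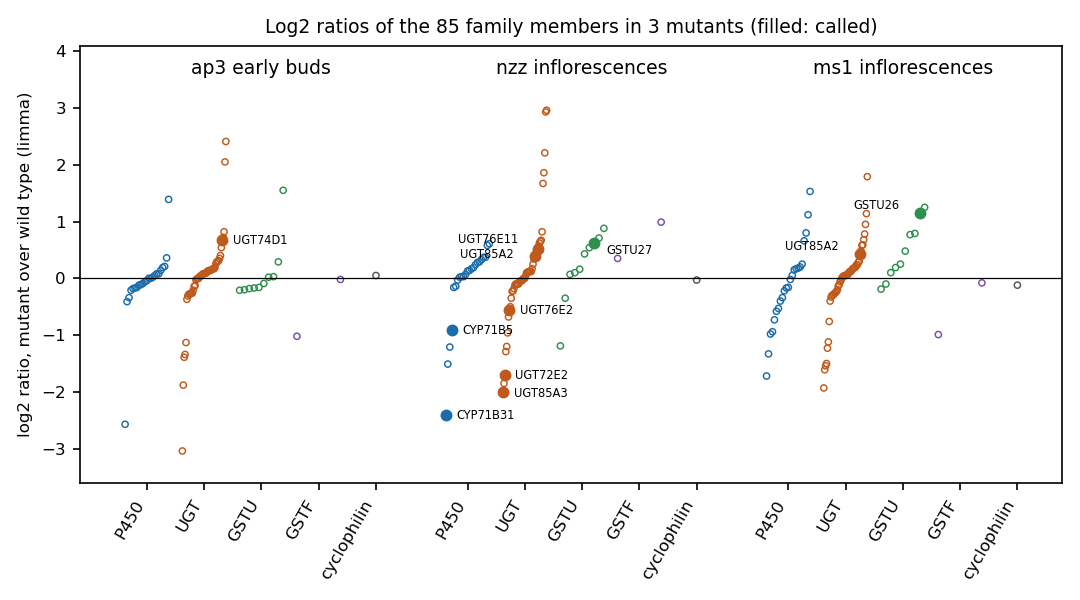
Log2 ratios of mutant over wild type (limma estimates, vertical axis) for the 85 members in ap3, nzz and ms1, ordered by value within each family; filled points are called and named. Most members lie near 0, the 5 called lower in nzz reach from -0.55 for UGT76E2 to -2.41 for CYP71B31, and 28 of the 35 unfilled points beyond 1 log2 unit in either direction had an array at the limit.

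Among the P450s, 2 of 23 fell in nzz and none was called higher. Both belong to CYP71B, a plant P450 subfamily that supplies 19 of the 23 P450s measured. CYP71B31 (AT3G53300), described in Arabidopsis flowers as an oxidase of the monoterpene alcohol linalool, had log2 ratios of -3.15, -2.0, -2.03 and -2.47 on the 4 nzz arrays. All 4 arrays were low, so it stood 5.32-fold lower in nzz than in wild type (log2 -2.41 ± 0.35 SE, adjusted p = 0.00282, limma). Its neighbour CYP71B5 (AT3G53280) was -0.68, -0.70, -0.97 and -1.28 in nzz. The 4 arrays lay close together and gave log2 -0.91 ± 0.16 (limma adjusted p = 0.00664). Both kept their call without any single nzz array.

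In ms1 inflorescences CYP71B5 was -1.28, -0.76, -0.68 and -0.21, negative on every array, and stood just outside the threshold (log2 -0.73 ± 0.16, limma adjusted p = 0.0537). It passed with values at the limit left out over all probes (limma adjusted p = 0.036) or with arrays centred (0.0418). It also passed without the dye term (0.045) or without replicate 4 (0.0229), and under no other alternative tried. CYP71B31 was -3.20, -0.43, -1.75 and 0.05 in ms1, so its arrays disagreed (log2 -1.33 ± 0.35, limma adjusted p = 0.107). In ap3 CYP71B31 averaged 0.05 and CYP71B5 -0.16, and all 8 array values lay between -0.39 and 0.36. The difference of ms1 minus nzz was 1.08 ± 0.49 for CYP71B31 and 0.17 ± 0.22 for CYP71B5, and neither was called (limma adjusted p = 0.365 and 0.741).

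These 2 genes flank CYP71B30P on chromosome 3 in the RefSeq gene order (assembly TAIR10.1). The middle gene could not be placed in nzz: its estimate was -0.03, from arrays that included a value at the upper limit. Elsewhere on chromosome 3, the run from CYP71B20 to CYP71B24 had nzz log2 ratios of 0.02 to 0.58, and the run from CYP71B25 to CYP71B37 had 0.14 to 0.61. None of those 11 neighbouring genes was called in nzz. The highest estimate of each run was imprecise, at 0.58 ± 0.96 for CYP71B24 and 0.61 ± 1.63 for CYP71B36, whose 3 nzz values were all at the limit. CYP71B6 was positive with a small spread in nzz, from 0.17 to 0.33 on its 4 arrays (log2 0.24 ± 0.07, limma adjusted p = 0.0541).

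Of 63 P450s listed for pollen wall, hormone, phenylpropanoid, glucosinolate, sterol and organ-size roles, 2 were among the named probes. CYP78A9, which promotes fruit and organ growth, was -0.20, -0.31, 4.13 and -0.43 in ms1, where 1 array set the positive mean of 0.80 ± 0.63 (limma adjusted p = 0.59). In nzz and ap3 its means were 0.07 and -0.17. CYP79A2, which starts the synthesis of benzylglucosinolate, was at the lower limit on 1 array in each of ap3 and nzz, and on no array of ms1. The pollen-wall list of 15 P450s had no measured member, and is not analysed here.

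Among the UGTs, 3 of 49 fell and 2 rose in nzz, 2 of them from a single gene cluster on chromosome 1. UGT85A3 (AT1G22380) was -2.31, -0.95, -2.18 and -2.58 on the nzz arrays. Replicate 2 was the least low, and the gene stood 4.02-fold lower in nzz than in wild type (log2 -2.01 ± 0.27, limma adjusted p = 0.00203). It kept this call without any single nzz array. In ms1 it was negative on all 4 arrays, at -1.23, -1.44, -1.76 and -0.48, without passing the threshold (log2 -1.23 ± 0.27, limma adjusted p = 0.0596). With values at the limit left out over all probes it passed (limma adjusted p = 0.0386), as it did without replicate 4 (0.0221). Under no other alternative tried did it pass in ms1. In ap3 it was 0.11, 0.40, 0.46 and -0.28.

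None of the other 3 measured genes of that cluster was called lower in nzz. UGT85A7 was 0.34 ± 0.27 and UGT85A5 0.00 ± 0.15. UGT85A2 (AT1G22360), between those genes in gene order, was 0.62, 0.68, 0.32 and -0.01 in nzz and was called higher (log2 0.40 ± 0.08, limma adjusted p = 0.0146). In ms1 it was 0.85, 0.30, 0.74 and -0.16, also called higher (log2 0.43 ± 0.08, limma adjusted p = 0.0353). It was the 1 member called in both mutants, the 2 results coming from separate arrays with a shared estimate of spread. The share of all probes called in both is not given here. In both mutants the arrays with the mutant in Cy5 read higher than those with the mutant in Cy3, and 1 array of each was below 0. Both calls were lost without the dye term (limma adjusted p = 0.205 in nzz and 0.412 in ms1). In nzz the call was lost without replicate 1, 2 or 3, and in ms1 likewise, with adjusted p of 0.0529 to 0.061 and 0.139 to 0.154. It was named after its values were seen, as was UGT76E2 below.

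**Figure D2:**
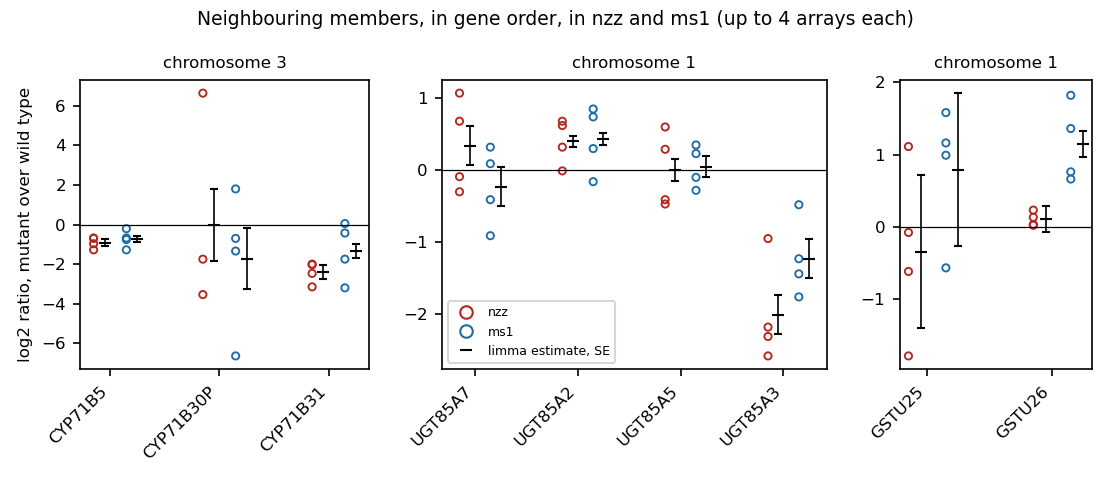
Log2 ratios of mutant over wild type for neighbouring members in RefSeq gene order, with open circles for the arrays (up to 4) of nzz and ms1 and bars for the limma estimate and its SE; the 3 panels have different vertical scales. CYP71B5 and CYP71B31 lie below 0 on all nzz arrays, UGT85A3 is the low member of its cluster, and GSTU26 is above 0 on all ms1 arrays.

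UGT72E2 (AT5G66690), which glucosylates the lignin precursors coniferyl and sinapyl alcohol, was -1.99, -0.99, -1.68 and -2.13 in nzz. It was low on all 4 arrays, 3.25-fold lower than in wild type (log2 -1.70 ± 0.35, limma adjusted p = 0.0141). Without replicate 1 or replicate 2 the call was lost (limma adjusted p = 0.0792 and 0.0546), and it was also lost with arrays scaled to one spread. In ms1 it was -0.01, -1.40, -1.95 and -2.66, with 1 array near 0 (log2 -1.50 ± 0.35, limma adjusted p = 0.0763). In ap3 the arrays followed the dyes, at -1.35 and -1.16 with ap3 in Cy3 and 0.77 and 0.61 with ap3 in Cy5.

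Of the 7 listed sinapate and monolignol UGTs, 6 were measured, and UGT72E2 was the 1 called in nzz, with none called in ms1 or ap3. Its relative UGT72E1 was flat in nzz (0.11 ± 0.14). UGT72E3 was at the limit on 2 of 4 nzz arrays, 3 of 4 ap3 arrays and 3 of 4 ms1 arrays, and its value of -6.59 on the last ms1 array lay just inside it. The 3 measured UGT84A genes make glucose esters of hydroxycinnamic acids such as sinapate. UGT84A3 was -0.66, -0.97, -0.19 and -0.90 in nzz, all negative (log2 -0.68 ± 0.21, limma adjusted p = 0.0566). Its neighbours UGT84A1 and UGT84A4 averaged -0.01 and -0.04.

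In the UGT76E group, UGT76E11 (AT3G46670), a flavonoid glucosyltransferase, rose in nzz, with 0.43, 0.23, 0.77 and 0.63 on the 4 arrays. The 2 arrays with nzz in Cy3 read higher than the others (log2 0.52 ± 0.12, limma adjusted p = 0.019). The call was lost without replicate 1, 2 or 3 (limma adjusted p of 0.0597 to 0.095) and without the dye term (0.0651). UGT76E2 (AT5G59590) fell in nzz, with -1.23, -0.92, 0.27 and -0.32. Its arrays disagreed in sign, and the call was marginal (log2 -0.55 ± 0.16, limma adjusted p = 0.0494). It was lost without replicate 1, 2 or 4 (limma adjusted p of 0.134 to 0.215). The neighbours of these genes, UGT76E12 and UGT76E1, were -0.22 and 0.11 in nzz, and neither was called.

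The flavonol glycosyltransferases, which finish the flavonol glycosides of petals and pollen, gave no call among the 3 of 7 listed genes that were measured. UGT78D1, the flavonol rhamnosyltransferase, was positive on all 4 nzz arrays, at 0.93, 0.54, 0.44 and 0.76 (log2 0.67 ± 0.25, limma adjusted p = 0.106). UGT78D3, the arabinosyltransferase, was positive on all 4 ap3 arrays, at 0.89, 0.67, 0.26 and 0.34 (log2 0.54 ± 0.18, limma adjusted p = 0.368). UGT73C6 scattered about 0 in all 3 mutants, with means of 0.09 in ap3, -0.10 in nzz and -0.30 in ms1. Among 10 other listed genes of flavonoid synthesis at large, DFR, the dihydroflavonol reductase, was the 1 measured and was not called, at 0.69 ± 0.60 in nzz.

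Of 12 listed UGTs that act on hormones, 7 were measured. UGT74D1 (AT2G31750), which glucosylates auxin, was the 1 member called in ap3, at 1.11, 0.32, 0.21 and 1.03. All 4 arrays were positive, the 2 with ap3 in Cy3 well above the others (log2 0.67 ± 0.09, limma adjusted p = 0.0348). The call was lost without the dye term (limma adjusted p = 0.468) and without any single ap3 array (0.12 to 0.16). In nzz it was -0.20, -0.53, 0.35 and -0.03, and in ms1 -0.90, -0.15, -0.64 and 0.08. The ms1 estimate had the opposite sign to that in ap3 and missed the threshold (log2 -0.40 ± 0.09, limma adjusted p = 0.0623). UGT74D1 was called lower in ms1 with arrays centred (limma adjusted p = 0.037) or limit values left out (0.0498), and under no other alternative tried.

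The other 6 hormone UGTs gave no call in these fits. UGT76C2, a cytokinin N-glucosyltransferase, was tightly measured, with all 12 array values from -0.40 to 0.34 and means of -0.26 in ap3, 0.12 in nzz and 0.08 in ms1. UGT74F1, which glucosylates salicylate, also stayed close to 0, at 0.13 in ap3, -0.12 in nzz and -0.11 in ms1 (SE 0.07 each). UGT76B1 averaged -0.26, -0.23 and 0.11. UGT76C1, UGT84B1 and UGT71B6, which act on cytokinin, auxin and abscisic acid, had values at the limit in at least 2 of the mutants. In nzz UGT71B6 was at the upper limit on replicate 1 and at 0.28, 1.05 and 0.88 on the others, all positive. With the limit value left out it was called higher (log2 0.62 ± 0.11, limma adjusted p = 0.0427). UGT84B1 in nzz was at 6.64 on both arrays with nzz in Cy5 and at -6.64 on both with nzz in Cy3, so the estimate was 0.00 ± 1.10.

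Among the glutathione transferases, 1 of 10 GSTUs and neither GSTF was called in nzz. GSTU27 (AT3G43800) rose in nzz, at 0.72, 0.54, 0.24 and 0.97. Every array was positive (log2 0.62 ± 0.14, limma adjusted p = 0.0209), and the call was lost without replicate 1, 2 or 4 (limma adjusted p of 0.077 to 0.103). It was also lost with the replicate number as a block. In ms1 it averaged 0.19 and in ap3 0.03. GSTU20 was positive on all 4 nzz arrays, at 1.25, 1.15, 0.45 and 0.68, and missed the threshold (log2 0.88 ± 0.26, limma adjusted p = 0.0518). GSTF3 averaged 0.99 ± 0.56 in nzz and -0.99 ± 0.56 in ms1, from arrays that did not agree in sign.

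GSTU26 (AT1G17190) was the 1 glutathione transferase called in ms1, and it was not called in nzz or ap3. Its ms1 arrays read 0.66, 1.36, 1.82 and 0.76. All 4 were above its highest value in nzz and in ap3, and the gene stood 2.22-fold higher in ms1 than in wild type (log2 1.15 ± 0.18, limma adjusted p = 0.0113). Without replicate 2 the call was lost, with nearly the same size (log2 1.10, limma adjusted p = 0.0658), and it was also lost with the replicate number as a block. The nzz arrays were 0.02, 0.03, 0.23 and 0.13 (log2 0.10 ± 0.18), and the ap3 arrays 0.39, 0.04, 0.12 and 0.62 (log2 0.29 ± 0.18). The difference of ms1 minus nzz was 1.05 ± 0.25 and did not pass the threshold over all probes (limma adjusted p = 0.119). Its neighbour GSTU25 was too variable to compare, with 1.16, -0.57, 0.99 and 1.58 in ms1.

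**Figure D3:**
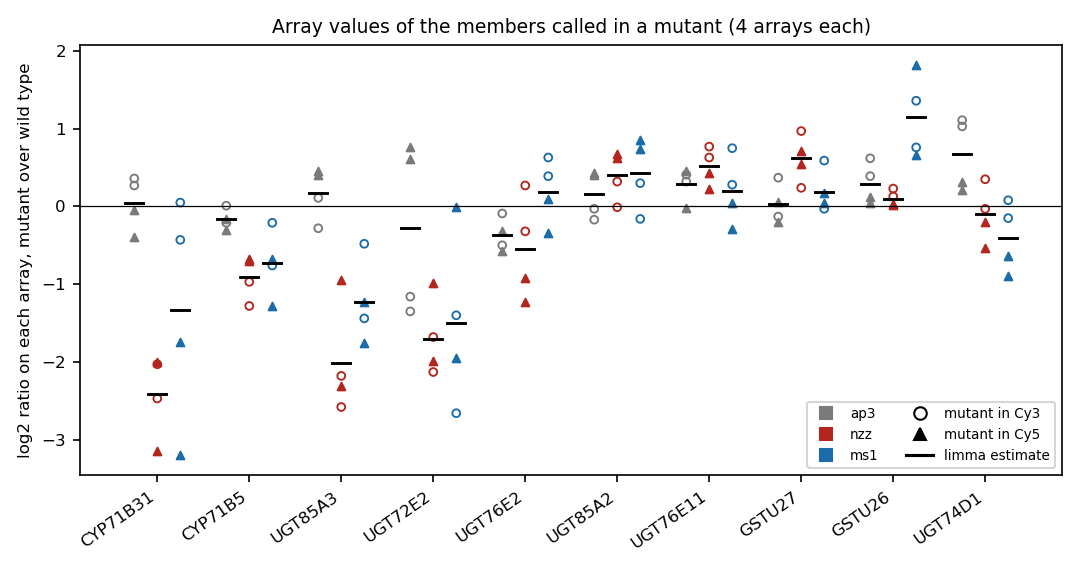
Log2 ratio of mutant over wild type on each array for the 10 members called in ap3, nzz or ms1, with circles for the mutant in Cy3, triangles for the mutant in Cy5 and bars for the limma estimate. CYP71B31 in nzz lies at or below -2.0 on all 4 arrays, and GSTU26 lies above 0 on all 4 ms1 arrays. Those that split by dye include UGT74D1 in ap3, UGT85A2 in nzz and ms1, and UGT76E2 in nzz.

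Of 9 listed genes of mature pollen, 4 were named probes (VGD1, VGDH1, ACT12 and ANX1), and all 4 were called in nzz and in ms1, with medians of -4.08 and -3.25. The sign of the ratios was set from genes of this kind, so their negative sign is no independent result. In ap3 their median was -1.49, with 1 of 4 called. Of 9 tapetum genes, 4 were named probes. AMS, ATA27 and ATA20 fell in nzz, with log2 ratios of -5.32, -6.22 and -4.46, while UND was at -0.13 (limma adjusted p = 0.955). None was called in ms1, where AMS was at 1.17, ATA27 at -3.91, ATA20 at -0.57 and UND at -1.55. SHT, the tapetal acyltransferase that makes hydroxycinnamic acid amides for the pollen coat, was the 1 measured gene of 12 pollen-wall partners. It stood at -5.01 ± 1.34 in nzz (limma adjusted p = 0.0371) and -3.54 ± 1.34 in ms1 (0.269). In tissue of this kind fewer cells of a type and less RNA per cell cannot be told apart, and the part of cell loss in the 5 lower members was not tested.

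In the staged ms1 series, the labels call sample 1 mature stage 13 flowers and sample 7 the youngest buds with the meristem. The medians of the 4 pollen genes were -0.37, -0.74, -1.73, -2.81, -3.98, -3.87 and -3.54 in samples 1 to 7, so genes of mature pollen were least lowered in the sample described as mature. The labels' numbering is kept below, and no order by age is drawn from it.

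One member, GSTU26, accounted for the calls in samples 3 and 4, and UGT87A2 for the call in sample 5. Samples 1 to 7 called 0, 0, 1, 1, 1, 0 and 0 members, against 0.00767%, 0.53%, 1.53%, 1.27%, 1.34%, 0.882% and 0.568% of all probes. At an unadjusted p under 0.05, limma gave 3, 20, 5, 3, 5, 6 and 3 members. Sample 2 holds the array of set 2 with 25 members at the upper limit. The F test for a ratio that differs among the 7 samples called no member, against 1.35% of all probes, and 2 members had an unadjusted p under 0.05 in limma. The shares of all probes at the unadjusted threshold are not given here, so those counts are not read as a result about the members.

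GSTU26 read 0.62, 0.71 and 0.04 in sets 1 to 3 of sample 1. Sample 2 gave 2.28, 0.82 and 1.76, sample 3 gave 2.49, 2.45 and 1.63, and sample 4 gave 1.45, 1.72 and 1.51. All 9 arrays of samples 2 to 4 were positive, and those of samples 3 and 4 agreed within about 1 log2 unit. Sample 5 gave 0.96, 0.55 and 1.04, sample 6 gave 0.75, -1.29 and 0.51, and sample 7 gave 0.55, -0.22 and -0.43. The ratio was thus highest in sample 3 and near 0 in samples 6 and 7, where the sets disagreed in sign.

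In sample 3 GSTU26 was 4.36-fold higher in ms1 than in wild type (log2 2.12 ± 0.32, limma adjusted p = 0.00183). In sample 4 it was log2 1.49 ± 0.32 (limma adjusted p = 0.0357). Sample 2 stood just outside at 1.55 ± 0.32 (limma adjusted p = 0.0516), and with the set as a block it passed (1.62 ± 0.31, adjusted p = 0.0244). In the series the dye followed the set, so the fit with the block had no dye term. Its estimates for single samples are not adjusted for dye. The F test of GSTU26 across the 7 samples missed the threshold without the block (limma adjusted p = 0.0687) and passed with it (limma adjusted p = 0.0479). Calls from 2 sets were less certain: sample 3 was lost without set 1 (limma adjusted p = 0.106) or set 3 (0.0549), and sample 4 without any set (0.0665 to 0.38), at log2 ratios of 1.48 to 2.47.

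**Figure D4:**
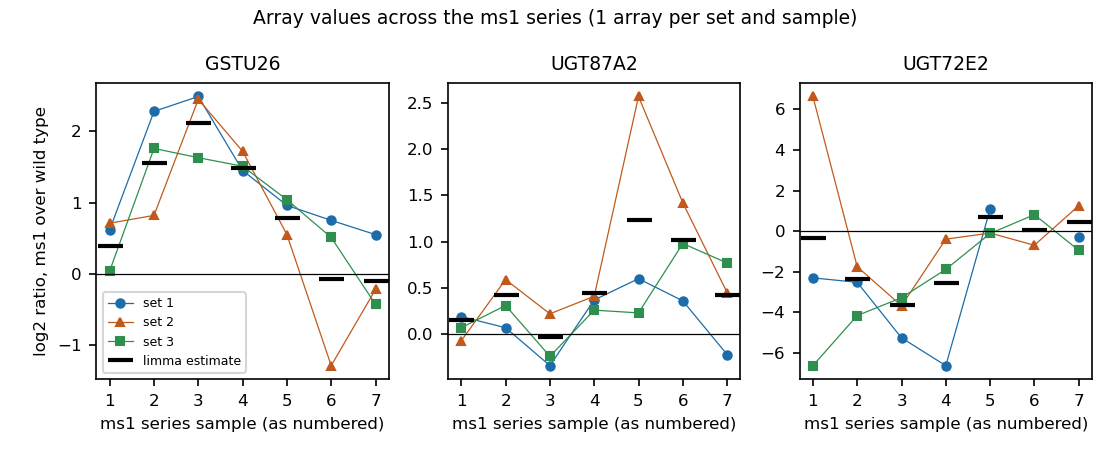
Log2 ratio of ms1 over wild type on each array of the 7 series samples, numbered as in the labels, for GSTU26, UGT87A2 and UGT72E2; lines join the arrays of a set and bars are limma estimates. GSTU26 peaks at 2.12 in sample 3, UGT87A2 in sample 5 rests on set 2 at 2.57, and UGT72E2 is negative on all arrays of samples 2 to 4.

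UGT87A2 (AT2G30140), a glycosyltransferase that promotes flowering by way of the repressor FLC, was 0.60, 2.57 and 0.23 in sample 5. Set 2 was far above the others (log2 1.23 ± 0.28, limma adjusted p = 0.0491). Without set 2 the ratio was 0.42 (limma adjusted p = 0.763), and the call was also lost without set 1 or 3 (0.199 and 0.223), with arrays centred on their median (0.0577), without the dye term (0.179), with the set as a block (1.13, 0.0635), or without the array of sample 2, set 2 (0.0562). Sample 6 gave 0.36, 1.42 and 0.98, all positive (log2 1.02 ± 0.28, limma adjusted p = 0.151). The ms1 inflorescences gave 0.56, 0.81, 0.53 and 0.04 (log2 0.48 ± 0.15, adjusted p = 0.172).

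UGT72E2, low in nzz, was also negative on every array of samples 2 to 4, but its spread was wide. It read -2.53, -1.76 and -4.17 in sample 2, -5.27, -3.69 and -3.29 in sample 3, and -6.64, -0.40 and -1.89 in sample 4. In sample 1 it read -2.31, 6.64 and -6.64, with sets 2 and 3 at opposite limits, and in samples 5 to 7 it lay between -0.95 and 1.25. None of the samples was called, and the lowest estimate was -3.65 ± 1.55 in sample 3 (limma adjusted p = 0.46). With values at the limit left out, which removed none of the 3 arrays of sample 3, that sample was called (log2 -3.98 ± 0.55, limma adjusted p = 0.00154). ATA27 and SHT had their lowest series estimates in samples 2 to 5, from -5.02 to -3.89 and from -4.50 to -3.17. That range includes sample 5, where UGT72E2 was not low. Neither ATA27 nor SHT was called in those samples. The other measured tapetum genes did not share this fall: in samples 2 to 5 AMS was 0.85 to 2.03, ATA20 -1.17 to 0.24 and UND -0.42 to -0.01. AMS was instead called lower in sample 7 (log2 -4.32 ± 0.70, limma adjusted p = 0.00936). The part of any of these genes in the values of UGT72E2 was not tested.

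UGT85A3, CYP71B5 and CYP71B31 gave no call in the series. UGT85A3 averaged between 0.05 and 0.40 in samples 1, 3, 4, 5 and 7, and CYP71B5 between -0.43 and 0.31 in all samples except sample 2. In sample 2 both estimates exceeded 2 because set 2 was at the limit: the arrays of UGT85A3 were 0.41, 6.64 and 0.05, and those of CYP71B5 -0.82, 6.64 and 0.32. Sample 6 gave UGT85A3 its lowest series values, -0.63, -3.36 and -0.68 (log2 -1.47 ± 0.89, limma adjusted p = 0.677). With values at the limit left out, sample 6 was called lower (log2 -1.64 ± 0.38, limma adjusted p = 0.0384). CYP71B31 read between -0.55 and 0.75 on all arrays of sets 1 and 3 in samples 1 to 6, and -0.65 and -1.37 in those sets of sample 7. Its set 2 arrays scattered widely, at 6.64, 6.64, 3.30, -0.32, -0.46, -3.11 and 0.84 in samples 1 to 7.

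With the set as a block, and so without the dye term, limma called 2 further members. UGT78D3, the flavonol arabinosyltransferase, was -0.27, -1.69 and -0.88 in sample 2 (log2 -0.95 ± 0.19 with the block, adjusted p = 0.0355, against -1.03 ± 0.43 and 0.264 without). UGT84A1 was -1.12, -0.39 and -0.64 in sample 7 (log2 -0.72 ± 0.14 with the block, adjusted p = 0.0311, against -0.59 ± 0.29 and 0.809 without). Each set carried its own offset for some members. UGT74B1, a glucosinolate glucosyltransferase, read 0.89 to 1.73 in all 7 samples of set 1 and between -0.73 and -0.23 in all 7 of set 3.

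Apart from GSTU26, the 8 members of lowest p in the F test had adjusted p of 0.652 or more (limma). They were UGT71B8, UGT87A2, CYP79C2, CYP71B20, UGT84B1, UGT76E2 and UGT84A4. UGT71B8 and UGT84B1 had the widest ranges of estimates, 5.37 and 6.21, and both had arrays at the limit. CYP79C2, CYP71B20 and UGT84A4 varied by 0.62, 0.78 and 0.73.

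By RefSeq order, 53 of the 85 members lie in 19 clusters in which successive members are at most 3 genes apart. In nzz, 4 of the 19 clusters held a called member, none had all its members called, and 11 held ratios of both signs. The same counts for clusters of other genes are not given here, so these are not read as a result about the members. In the runs from CYP71B20 to CYP71B24 and from CYP71B25 to CYP71B37, all 11 estimates were positive in nzz with none called. The median over all probes in nzz was positive too, at 0.10, and the share of positive estimates over all probes is not given here. Some of the 11 had no clear sign: CYP71B21, at 0.02, was negative on 3 of 4 arrays. Of the 3 genes CYP71B5, CYP71B30P and CYP71B31, 2 were called lower. Whether neighbours move together was not tested. Cross-hybridisation between such paralogs was not tested, since the probe sequences were not used here.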

How the data were processed

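The authors deposited 1 normalized table for the 33 arrays. Its values were taken to be log10 ratios, already turned to 1 direction, with base and direction inferred. How the authors scanned, background-corrected and normalized the arrays is not given in the sources used here. Deposited log10 values were multiplied by 3.32 and turned to log2 ratios of mutant over wild type; array medians lay between -0.08 and 0.14, and 2.37% to 17.7% of an array's values were at the limit. The 450 control lines were left out. Of 26090 gene probes, 13960 carried 1 gene symbol in the platform annotation and 12130 are unnamed here but were tested.

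limma (version 3.58.1, R 4.3.3) fitted 1 coefficient per group and a dye term, over the 12 mutant arrays and over the 21 series arrays, with at least 3 of 4 or 2 of 3 values per group. Errors are SEs from limma. The number of arrays limits the precision. At an adjusted p under 0.05 the dye term was called for 20% of probes (21 members) in the mutants and 27.5% (17 members) in the series, where it also separates set 2 from sets 1 and 3. The code was tested on simulated data.

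Genes were named when called with 1 sign on every array (up to 8 lowest and 8 highest per comparison), as the 8 of lowest p in the F test, or as measured members of role lists. The members, lists and tests were chosen with earlier results of these data known. The sets of the series, collected on different days per the labels, pair its samples. Deviations from sample means, with no dye term removed, correlated at r of 0.25 to 0.81 in 63 of 63 pairs within a set. Between sets r was -0.62 to 0.21, but deviations within a sample sum to 0, which by itself pulls these values down. All arrays of a set share 1 dye orientation, so these correlations cannot tell set from dye. The alternatives tried were no dye term, centring, scaling, leaving out values at the limit, reading the values as dye ratios, a replicate block and leaving out arrays. In the series the block took the place of the dye term, because the dye followed the set.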

Additional observations from a re-analysis of the deposited data

Results flagged for a closer look

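In the members called or listed by role, 61 groups of 4 arrays of a mutant were examined and 2 held an array far from the others; chance gives about 1 in 20. UGT71B6, which glucosylates abscisic acid, was at the limit of 6.64 on nzz replicate 1, with the other 3 arrays from 0.28 to 1.05. CYP78A9 was 4.13 on ms1 replicate 3, with the other 3 arrays from -0.43 to -0.20. Neither gene was called there.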

How the results depend on the processing

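Counts of members called moved under several settings. In ap3, the 1 call became 0 without the dye term, 0 with the replicate block and 0 without any single array. In nzz, the 8 calls became 5 when no dye term was fitted and 4 when values were taken as dye ratios. They became 12 with limit values left out (adding GSTU20, UGT71B6, UGT73C1 and UGT84A3), 9 with centring (adding UGT84A3), 9 with the replicate block, and 3 to 8 when 1 array was left out. The block lost GSTU27 and UGT76E2 and added GSTU15, UGT72E3 and UGT76D1. In ms1, the 2 calls became 4 with arrays centred on their median (adding CYP71B5 and UGT74D1). They became 5 with limit values left out (adding CYP71B5, UGT74D1 and UGT85A3). They became 4 as dye ratios and 0 with the block, and 1 to 5 when 1 array was left out. In ap3 dye ratios also gave 1 call, of another member, CYP71B36. The difference of ms1 minus nzz gave 1 call as dye ratios and otherwise 0. In series samples 1 to 7, taking the values as dye ratios gave 3 calls in sample 1 and 0 in samples 3, 4 and 5; limit values left out gave 1 in sample 2 (GSTU26), 2 in sample 3 (GSTU26 and UGT72E2) and 1 in sample 6 (UGT85A3). The block, here the set and fitted without a dye term, gave 2 in sample 2, 0 in sample 5 and 1 in sample 7. Sample 5 also gave 0 without the dye term or with centring. The F test gave 1 call with arrays scaled to one spread, 1 with limit values left out and 1 with the block. Leaving out a set gave 0 to 2 calls in sample 1 and in the F test, 0 to 1 in samples 2, 3 and 5 and 0 in samples 4, 6 and 7. Without set 2 all arrays had the mutant in Cy3, so no dye term was fitted. The 2 calls in sample 1 and in the F test, UGT71B8 and UGT73C2, came from that fit. In sample 1 both remaining arrays of UGT73C2 were at the lower limit. The call in sample 5 came without set 1 and was UGT74F1, not UGT87A2. Leaving out the array of sample 2, set 2, a setting chosen after seeing the data, took the call of sample 5 to 0 and changed no other count. Replicate numbers of the mutants share only a number: deviations of same-numbered arrays correlated at r of -0.32 to 0.33 (median 0.03). The causes were not tested. The repeats of named members leave out the reading as dye ratios, and in them no log2 ratio reversed in a call. Of these 579 repeats, 524 stayed on their side of the threshold, 47 lost it and 8 gained it. They include members of role lists that were not called in the first place. Read as dye ratios, UGT72E3 in ms1 went from 0.01 to -6.63 and was called (limma adjusted p = 0.0349).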
